A study of Mus musculus with 2 samples.

Results

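The cAMP signaling genes of the mouse adrenal gland were read as 4 protein families that make, sense, place and destroy the second messenger cAMP. Members were the protein-coding genes whose symbols name an adenylyl cyclase, a cyclic nucleotide phosphodiesterase, a regulatory or catalytic subunit of protein kinase A, or an A-kinase anchoring protein. This rule found 53 of the 55536 annotated genes, and no measured value entered it. They were 10 cyclases, 22 phosphodiesterase genes, 6 kinase subunits and 15 anchoring proteins. The study holds 1 group of 2 libraries, made by total RNA sequencing of the whole adrenal gland of male B6CASTF1/J mice, the first-generation cross of C57BL/6J and CAST/EiJ, aged 36 days. The labels name no treatment and no engineered allele, so there is no comparison between conditions. The sample labels name different animals for the libraries, whereas the library labels name 1 animal and the donor label is shared, so they do not settle whether separate mice were used. The SDs below therefore measure the spread between these 2 libraries, which may be technical.

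In the adrenal cortex, the pituitary hormone ACTH binds its receptor, the stimulatory G protein turns on membrane adenylyl cyclases, and the cAMP they make releases the catalytic subunits of protein kinase A from their regulatory subunits. The kinase then drives cholesterol import and steroid synthesis, and over longer times raises transcription of the steroid enzymes. Phosphodiesterases hydrolyse cAMP, and anchoring proteins tether the kinase beside its substrates. In humans, mutations of PRKAR1A, PRKACA, PDE8B and PDE11A are known causes of adrenocortical overgrowth or cortisol excess.

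Levels within each family spanned a wide range, from leading members to genes with 11 counts or fewer in both libraries in 3 of the 4 families. The RII-beta regulatory subunit Prkar2b was the most abundant member, with 189 and 127 TPM (a level per transcript length, scaled to the library total) in replicates 1 and 2. Pde2a led the phosphodiesterases with 62.4 and 43.5 TPM, Adcy6 and Adcy9 led the cyclases, and Akap2, Akap1 and Akap8l had the highest mean TPM of the anchoring proteins. At 1 TPM or more in both libraries were 36 of the 53 members, against 52.4% of the 22015 nuclear protein-coding genes. These were all 6 kinase subunits, 6 of 10 cyclases, 14 of 22 phosphodiesterases and 10 of 15 anchoring proteins. At 10 TPM or more in both libraries were 17 members, and the share of all coding genes at that level was not computed. The kinase subunits summed to 447 and 289 TPM, the anchoring proteins to 228 and 165, the phosphodiesterases to 196 and 142, and the cyclases to 57.4 and 47.7. The order of these 4 sums was the same in both libraries.

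**Figure D1:**
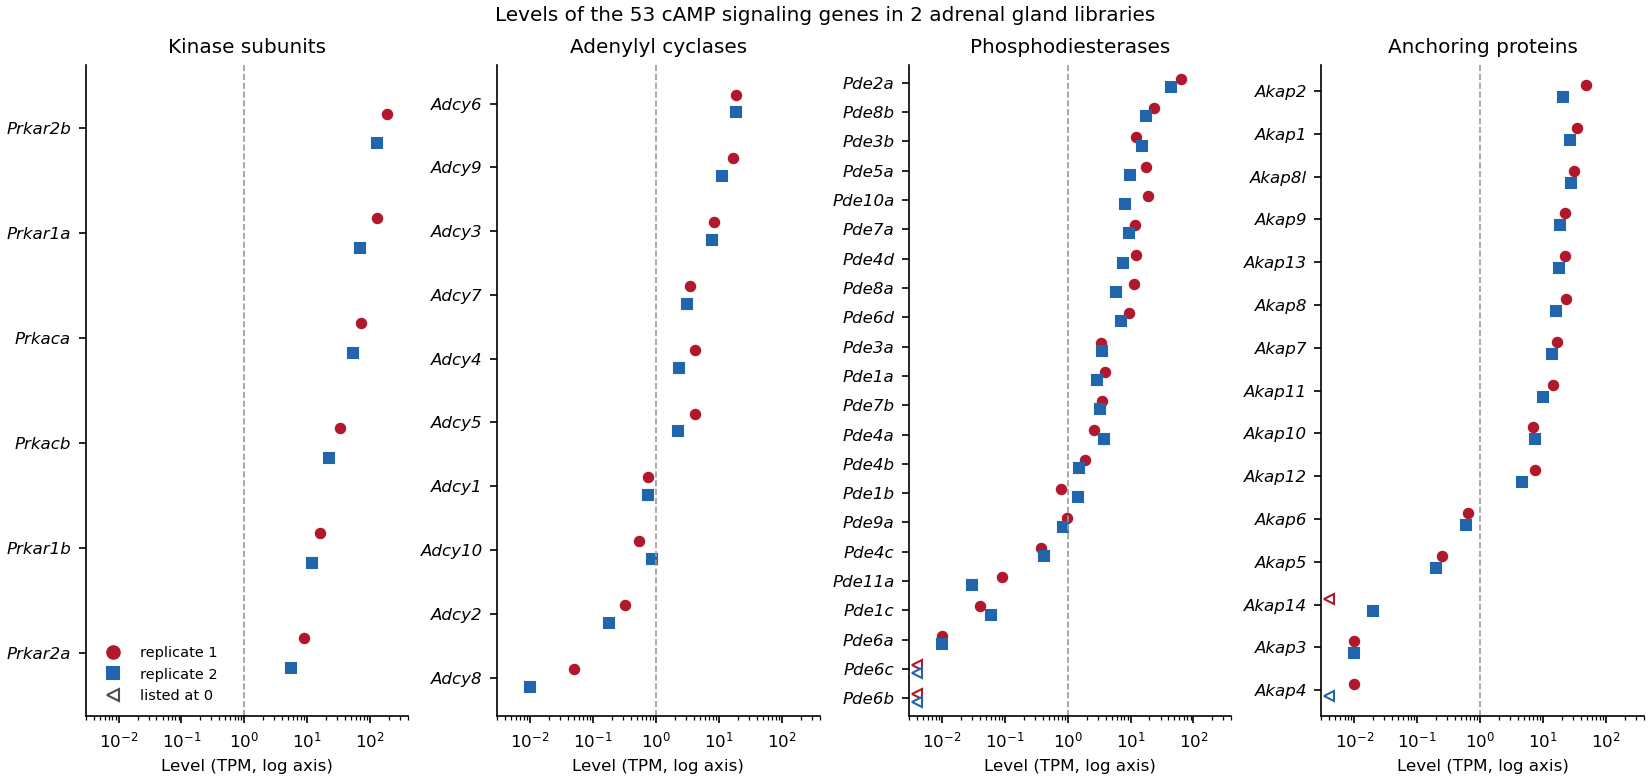
Level of each of the 53 members in TPM (log axis), 1 panel per family, ordered by mean level. Circles are replicate 1, squares replicate 2, open triangles a value listed at 0, and the dashed line marks 1 TPM. All 6 kinase subunits sit above the line in both libraries, while 8 of 22 phosphodiesterases do not.

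Libraries held 35813366 and 30628771 expected counts (reads assigned to genes by a model, which need not be whole), of which 110154 and 82105 fell on members. A count of 3, taken as the detection limit, corresponds to 0.0845 and 0.0994 CPM (counts scaled to the library total). All 7 markers of the steroid-making cortex and all 7 of the chromaffin cells were at 1 TPM or more in both libraries, as the tissue label says. The 6 pancreas markers summed to 0.20 TPM in replicate 1 and 6665 TPM in replicate 2, and the 6 liver markers to 13.9 and 107 TPM. The 10 immediate early genes, which respond within minutes to stimulation, summed to 550 and 72.4 TPM. The cortex markers summed to 14718 and 8187 TPM, and the chromaffin markers to 1675 and 1892 TPM. The abundant 7SL RNA took 32.5% and 48.9% of all TPM, and TPM has a fixed total, so the deposited TPM of other genes is lower in replicate 2 at an equal share of the rest. Levels were therefore compared between libraries as a ratio of counts scaled by TMM (a scaling that assumes most genes do not differ), and members were compared with each other as shares within a library. Taken over 14780 genes, the counts differed far beyond sampling noise (mean chi-square 160 per gene), so the libraries are not 1 library deposited again. Genes that differ strongly at high counts weigh most in this mean, and it does not describe the typical gene.

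Promoter sequences are shown for the kinase subunits that carried most of the level, because protein kinase A acts on transcription through the cAMP response element (CRE). The full element is the palindrome TGACGTCA, and a one-sided match is TGACG, or CGTCA on the other strand. Sequences are RefSeq promoter windows of build GRCm38.p6, which has the same coordinates as the mm10 files, cut to 160 bases outside annotated exons and written 5′ to 3′ on the gene's strand. Capitals mark the matches. The letters and matches are those of the reference genome, and the alleles of these crossbred mice were not read. Prkar1a is shown upstream of each of its 2 leading starts, at chr11:109649203-109649362 (plus strand) for Prkar1a-203 and at chr11:109650761-109650920 (plus strand) for Prkar1a-201. Prkar2b is shown at chr12:32061297-32061456 (minus strand), Prkaca at chr8:83972818-83972977 (plus strand) and Prkacb at chr3:146812991-146813150 (minus strand).
Prkar1a-203: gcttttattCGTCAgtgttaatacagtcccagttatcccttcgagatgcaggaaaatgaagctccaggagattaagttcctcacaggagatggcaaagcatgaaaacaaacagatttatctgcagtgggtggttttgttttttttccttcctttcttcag
Prkar1a-201: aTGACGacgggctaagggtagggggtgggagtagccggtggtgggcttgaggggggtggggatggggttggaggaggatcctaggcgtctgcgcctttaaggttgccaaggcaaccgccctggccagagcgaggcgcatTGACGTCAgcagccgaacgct
Prkar2b-202: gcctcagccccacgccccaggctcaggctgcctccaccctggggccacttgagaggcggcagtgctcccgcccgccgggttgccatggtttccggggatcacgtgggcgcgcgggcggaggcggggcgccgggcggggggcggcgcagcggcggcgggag
Prkaca-201: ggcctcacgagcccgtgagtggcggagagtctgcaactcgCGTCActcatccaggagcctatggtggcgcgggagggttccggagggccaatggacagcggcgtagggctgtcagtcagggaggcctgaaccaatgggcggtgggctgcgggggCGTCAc
Prkacb-202: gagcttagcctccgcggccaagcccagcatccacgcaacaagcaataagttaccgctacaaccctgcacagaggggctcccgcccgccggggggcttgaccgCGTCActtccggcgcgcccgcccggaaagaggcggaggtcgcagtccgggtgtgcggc

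The stretch before Prkar1a-201 held the full palindrome near its 3′ end, 49 to 42 bases before the RefSeq start at position 109650949 of chromosome 11. Of the 43 members with a RefSeq promoter, Prkar1a was the 1 member with the full element in the 250 bases before a start (2.33% of members, against 1.77% of 27025 genes). A one-sided match occurred in 11 of the 43, or 25.6%, against 19.8% of all genes. These were Prkar1a, Prkar1b, Prkaca, Prkacb, Adcy7, Adcy9, Akap11, Pde1a, Pde4a, Pde4b and Pde8a, while none was found in the Prkar2b window. Counted per window, 15.3% of the members' 85 windows and 17.8% of all 32851 windows held it. The element CAAGGTCA, read by the steroidogenic factor NR5A1, occurred on either strand in Adcy1 alone among the 43 (2.33%, against 1.51% of all genes). A match is a run of letters, and binding was not measured.

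Protein kinase A is a tetramer of a regulatory pair and a catalytic pair. Prkar2b (chr12:31958476-32061296) held 42.3% and 44.0% of the summed TPM of the 6 subunit genes, a mean of 43.2% ± 1.24 (SD, n = 2). It ranked at place 243 among the nuclear protein-coding genes. Prkar1a (chr11:109649405-109669656), the RI-alpha subunit, had 130 and 68.3 TPM and 29.1% and 23.6% of the kinase TPM. Prkaca (chr8:83972993-83996443), the main catalytic subunit, had 70.6 and 53.5 TPM, and Prkacb (chr3:146729574-146812990), the beta catalytic subunit, had 32.9 and 22.4 TPM. Lower still were the RI-beta gene Prkar1b, with 15.8 and 12 TPM, and the RII-alpha gene Prkar2a, with 8.73 and 5.57 TPM. All 5 neighbouring pairs in this order had shares whose ranges over the libraries did not overlap, so the order was the same in both. Counts of Prkar1b were not whole and its exons overlap those of Gm15672 on the same strand, so its level is less certain.

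The subunit types stood in the same order in both libraries. RI over RII, the summed TPM of Prkar1a and Prkar1b over that of Prkar2a and Prkar2b, was 0.737 in replicate 1 and 0.604 in replicate 2 (mean 0.671 ± 0.0940 SD, n = 2). RII transcripts thus outnumbered RI transcripts in each library. Prkaca over Prkacb was 2.15 and 2.39 (2.27 ± 0.173), and regulatory over catalytic transcripts 3.32 and 2.81 (3.07 ± 0.361). Within RII, Prkar2b was the main gene, and Prkar2b over Prkar1a was 1.45 and 1.86. These are ratios of RNA, and no protein was measured. Prkaca over Prkacb depended on the quantification, at 1.78 in the second transcript table and 1.55 by counts without division by length.

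**Figure D2:**
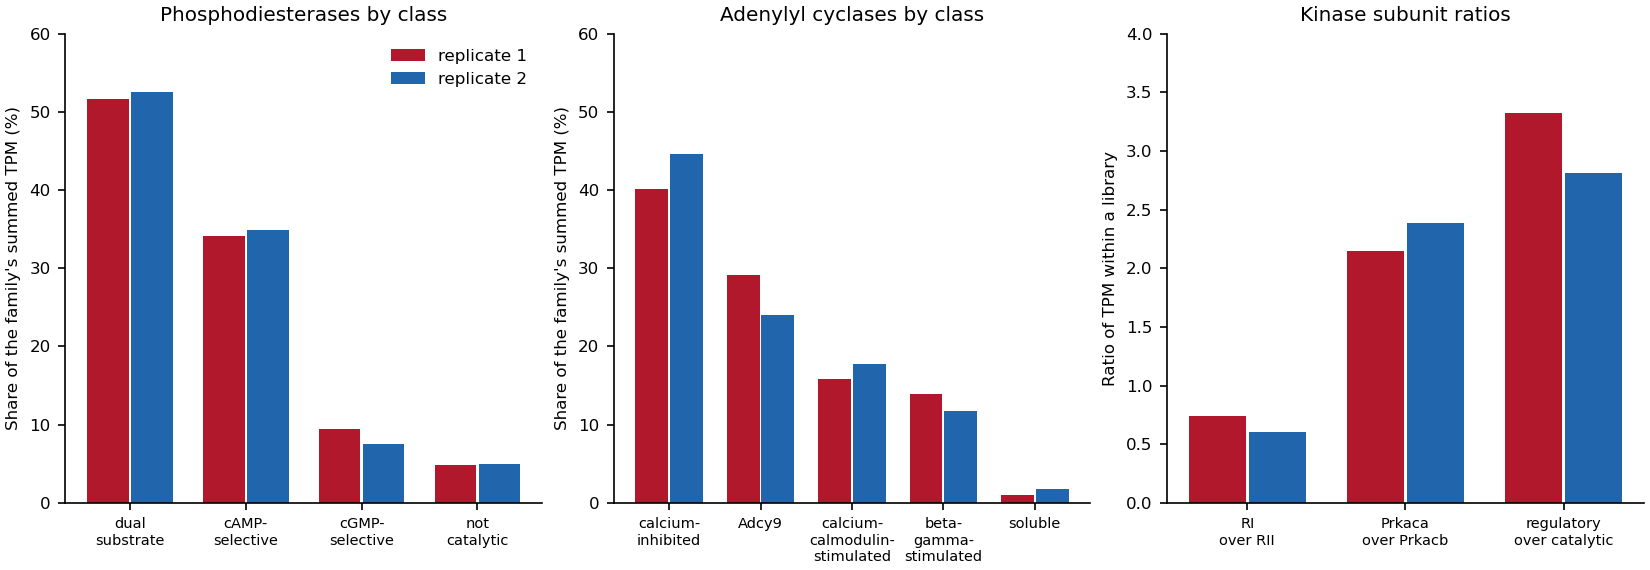
Left and middle, share of a family's summed TPM (%) held by each class of phosphodiesterase and adenylyl cyclase. Right, ratios of TPM between kinase subunit types within a library, where RI over RII lies below 1 in both libraries (0.737 and 0.604). Red bars are replicate 1 and blue bars replicate 2, with 1 value per bar and no error.

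The cyclases make cAMP from ATP. Adcy6 (chr15:98589973-98610076), which calcium inhibits, had 18.9 and 19.1 TPM and 32.9% and 40.0% of the family's TPM (36.5% ± 5.01 SD, n = 2). Adcy9 (chr16:4287529-4420498), a widely expressed cyclase that resists forskolin, had 16.8 and 11.4 TPM and 29.2% and 24.0% of the family. Adcy3, stimulated by calcium and calmodulin and known from olfactory neurons, had 8.28 and 7.72 TPM. The ranges of share of these 3 in TPM did not overlap in any neighbouring pair. By counts without division by length, Adcy9 had 2712 against 2424 for Adcy6 in replicate 1, and 2045 against 2665 in replicate 2. Protein-coding transcripts held 72.4% and 69.8% of Adcy6 TPM in the first transcript table, and 91.8% and 88.1% in the second. They held 100% of Adcy9 TPM in both tables. Family shares in coding transcripts alone were not computed. Adcy7, stimulated by G protein beta-gamma subunits, had 3.46 and 3.09 TPM, and its share overlapped that of Adcy4, as did those of Adcy4 and Adcy5. Adcy1, Adcy10 and Adcy2 had 0.180 to 0.860 TPM, and Adcy8 had 11 and 2 counts. Exons of Adcy3 and Adcy6 overlap those of Cenpo and Gm29331 on the opposite strand, and the counting is not stated to use strand.

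Grouped by textbook regulation, in classes chosen after the levels were known, the calcium-inhibited pair Adcy5 and Adcy6 held 40.2% and 44.6% of cyclase TPM. Adcy9 held 29.2% and 24.0%. The calcium-calmodulin-stimulated cyclases Adcy1, Adcy3 and Adcy8 held 15.8% and 17.8%, nearly all of it in Adcy3. The beta-gamma-stimulated cyclases Adcy2, Adcy4 and Adcy7 held 13.9% and 11.8%. The soluble, bicarbonate-sensitive cyclase Adcy10 held 0.940% and 1.80%. By gene TPM, which includes transcripts that are not coding, the calcium-inhibited class was the largest in both libraries.

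Phosphodiesterases differ in whether they cleave cAMP, cGMP or both. Pde2a (chr7:101421691-101512827), a dual enzyme that cGMP stimulates, held 31.7% and 30.6% of the family's TPM (31.2% ± 0.815 SD, n = 2) and ranked at place 863 among coding genes. Pde8b (chr13:95024454-95250336), a high-affinity cAMP enzyme that the common inhibitor IBMX does not block, had 23.2 and 17.8 TPM, or 11.8% and 12.5% of the family. In the gene table the shares of Pde2a and Pde8b were separate from each other and from the next gene. The place of Pde8b depended on the quantification, since in the second transcript table it had 35.9 and 35.7 TPM, beside 20.4 and 36.4 TPM for Pde3b and 35.6 and 20.9 TPM for Pde10a. By counts without division by length, its share was 7.16%, and Pde3b and Pde5a had more counts than Pde8b in both libraries. Pde3b, a cGMP-inhibited enzyme of fat and liver cells, had 12.3 and 15.3 TPM, and Pde5a, a cGMP-selective enzyme, had 17.5 and 9.77 TPM. Their shares overlapped, as did those of every neighbouring pair from Pde3b down to Pde6d, a run through Pde5a, Pde10a, Pde7a, Pde4d and Pde8a. Of the 21 neighbouring pairs in the family, 13 overlapped. Exons of Pde2a overlap those of Gm45837 on the same strand, so reads there may go to either gene. Counts of Pde2a were whole in both libraries, so no fractional sharing of reads was seen. Exons of Pde8b and Pde5a overlap genes on the opposite strand.

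The dual-substrate enzymes held 51.7% and 52.6% of phosphodiesterase TPM, again in classes chosen after the levels were known. Class shares were computed from the gene table alone. The mean share of Pde2a, the largest dual-substrate member, was 31.2% there and 23.1% in the second transcript table. The cAMP-selective enzymes held 34.1% and 34.9%, the cGMP-selective enzymes 9.42% and 7.47%, and Pde6d 4.80% and 4.99%. Pde6d carries a phosphodiesterase name but is a carrier of prenylated proteins with no catalytic activity. Within the cAMP-selective class, Pde8b over its paralog Pde8a was 2.06 and 3.06. Pde8a had 11.3 and 5.82 TPM. Pde3a, Pde1a, Pde7b, Pde4a and Pde4b had 1.5 to 3.94 TPM, and Pde1b, Pde9a and Pde4c 0.370 to 1.46 TPM. Pde11a, whose human gene is tied to adrenal disease, had 7 and 5 counts, against 1930 and 1357 for Pde8b. Pde1c had 7 and 12 counts, the rod gene Pde6a 1 and 1, and the photoreceptor genes Pde6b and Pde6c none. The 4 retina markers of the marker lists summed to 37 and 51 counts.

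Anchoring proteins bind the regulatory subunits and hold the kinase at a membrane, organelle or scaffold. Akap2 (chr4:57717657-57896984), an actin-associated anchor, had 48.7 and 20.6 TPM and 21.3% and 12.5% of the family (16.9% ± 6.23 SD, n = 2). Akap1 (chr11:88830792-88864586), the anchor on the outer mitochondrial membrane, had 34.6 and 26.6 TPM, and the nuclear protein Akap8l (chr17:32321424-32350607) had 30.7 and 27.5 TPM. The shares of Akap2 and Akap1 overlapped, as did those of Akap1 and Akap8l, so no single gene led this family. In the second transcript table, Akap8, a nuclear matrix anchor, had 65.9 and 58.8 TPM, beside 59.2 and 62.0 TPM for Akap1. Akap8l had 47.6 and 55.9 TPM there. By counts without division by length, Akap13 and Akap9 had more counts than Akap1 in both libraries. The order of the leading anchors thus depended on the quantification. In the gene table, Akap9, the large anchor of centrosome and Golgi, followed Akap8l with 22.2 and 18.9 TPM. Exons of Akap9 overlap those of Cyp51 on the opposite strand. Akap13, Akap8, Akap7, Akap11, Akap10 and Akap12 had 4.69 to 23.4 TPM. Akap6 and Akap5 had 0.20 to 0.640 TPM, and Akap3, Akap4 and Akap14 had 0 or 1 count in each library. Counts of Akap2 and Akap11 were not whole, and Akap2 shares exons with Pakap on the same strand, so its level is less certain.

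Few members differed by 2-fold or more between the libraries on the TMM scale. A ratio is replicate 1 over replicate 2, and a gene counted as past 2-fold where the log2 ratio was at least 1 in size and the exact 95% Clopper-Pearson counting interval excluded equality. Among the 43 members with a mean of 1 CPM or more, 1 was past 2-fold toward replicate 1, against 1.74% of the 14780 genes compared, and 1 toward replicate 2, against 5.13%. The median log2 ratio was -0.04 over these members and -0.01 over all genes compared, and the SD over genes was 0.43 and 0.99. The lower and upper quartiles were -0.27 and 0.20 over these members, and -0.29 and 0.20 over all genes compared. The quartiles were thus close, and the SDs do not show that a typical member differed less than a typical gene. Ratios ran from -1.06 to 1.24, with 18 members higher in replicate 1 and 25 higher in replicate 2. That is 41.9% higher in replicate 1, against 48.9% of all genes compared, and the split was 22 and 21 when libraries were scaled by total expected counts. With 1 library on each side, these ratios compare libraries, not conditions, and have no replicate check. Bulk RNA also cannot tell apart fewer cells of a type from less RNA per cell. Not compared for low counts were Adcy8, Pde1c, Pde4c, Pde6a, Pde6b, Pde6c, Pde11a, Akap3, Akap4 and Akap14.

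**Figure D3:**
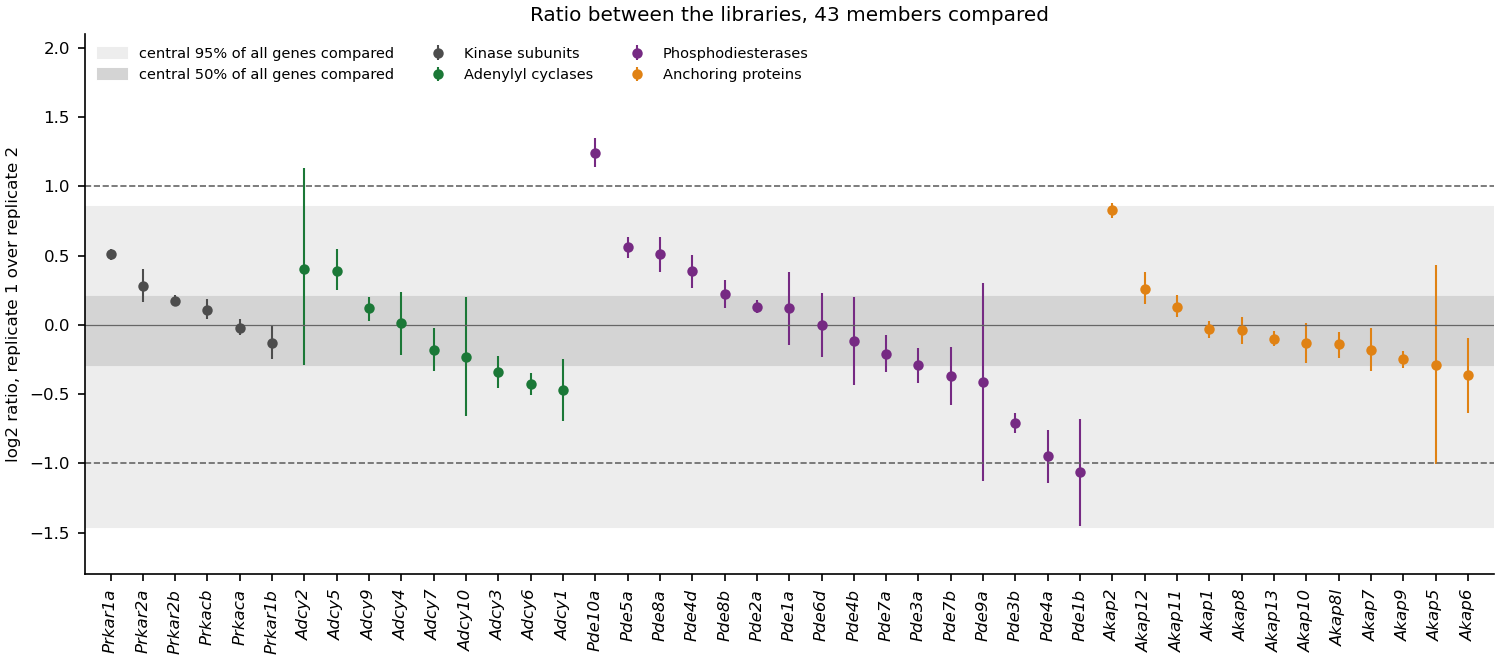
log2 ratio of TMM-scaled expected counts, replicate 1 over replicate 2, for the 43 members compared, grouped by family. Bars are exact 95% counting intervals, the grey bands hold the central 50% and 95% of all 14780 genes compared, and dashed lines mark 2-fold. Pde10a (1.24) lies above the upper line and Pde1b (-1.06) below the lower line.

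Pde10a (chr17:8525372-8986648), a dual-substrate enzyme best known from striatal neurons, had 2797 counts in replicate 1 and 967 in replicate 2, or 18.8 and 8.10 TPM. The ratio was 2.37-fold toward replicate 1 (95% counting interval 2.20 to 2.55). Pde1b (chr15:103503034-103530052), a calcium-calmodulin-activated enzyme, had 90 and 154 counts, or 0.770 and 1.46 TPM. Its ratio was 2.09-fold toward replicate 2 (1.60 to 2.74). It was not past 2-fold without the filter on low counts (where its log2 ratio was just under 1 in size), in the second transcript table (-0.97) or with spike-in scaling (-0.17), whereas Pde10a was past it under every setting tried, at 1.14 to 2.14. Pde4a, a cAMP-selective enzyme with 362 and 572 counts, missed the threshold at -0.95. Next in size came Akap2 at 0.83 and Pde3b at -0.71.

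The kinase subunits were nearer to each other. Prkar1a was 1.42-fold higher in replicate 1 (1.38 to 1.46), with 13828 and 7971 counts. Prkar2b had a log2 ratio of 0.17, Prkar2a 0.28, Prkacb 0.11, Prkaca -0.02 and Prkar1b -0.13. Among the leading cyclases, Adcy6 was at -0.43, Adcy3 at -0.34, Adcy7 at -0.18 and Adcy9 at 0.12. Adcy6 thus had similar TPM in both libraries yet a TMM-scaled ratio toward replicate 2. Pde2a was at 0.13, Pde8b at 0.22 and Pde5a at 0.56, and Akap1 was at -0.03, Akap8l at -0.14 and Akap9 at -0.25. Scaling by the added spike-in RNA instead of TMM moved the median of all genes by 0.89 toward replicate 1 and put 41 of the 43 members higher there, against 18 with TMM. Adcy6 was then at 0.47, Adcy3 at 0.55 and Pde3b at 0.18, so these directions depend on the scaling.

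Several marker lists moved in step with these ratios, and their part in them was not tested. Toward replicate 1, with Pde10a and Prkar1a, were all 7 cortex markers (median log2 ratio 0.37, 1 past 2-fold), all 10 immediate early genes (1.62, 8 past) and all 5 erythroid markers (0.83, 1 past). On the TMM scale, toward replicate 2 with Pde1b, Pde4a and Pde3b were all 7 chromaffin markers (-0.40, none past) and 5 of 6 adipocyte markers (-0.44, 1 past). All 6 pancreas markers (-14.58) and all 6 liver markers (-3.29) were past 2-fold in that direction. Pancreas markers were nearly absent from replicate 1, with 7 counts in all against 248107 in replicate 2. Of the 4 brain markers, 3 could be compared, and they had a median of -0.54 with summed TPM of 15.4 in each library. Endothelial, smooth muscle and macrophage markers had medians of 0.11, 0.21 and 0.21. Of the 4 kidney markers, 3 were at 0 in both libraries, and the germ line and lymphocyte markers had 21 and 7, and 13 and 22, counts in replicates 1 and 2.

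For some members the leading transcript depended on the quantification. Each library has 2 deposited transcript tables, the first in the column layout of RSEM and the second in that of kallisto. Of the 36 members at 1 TPM or more in both libraries, 29 had the same leading transcript in both libraries in the first table, 32 in the second, and 22 had the same leader in all 4 columns. For 6 members the tables gave different leaders, each the same in both libraries. These were Adcy9, Pde2a, Pde7a, Pde8b, Prkar1a and Prkar1b. Agreement between the libraries was part of how these 6 were picked. Over all 36, the leader differed between the libraries for 7 in the first table.

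Prkar1a was among the 6 members with different leaders in the 2 tables, and the choice of table bears on the promoters printed above. Prkar1a-201, which starts at position 109650921 beside the full CRE, held 77.6% and 78.5% of the gene's TPM in the first table, but 17.5% and 19.7% in the second. Prkar1a-203, which starts upstream at 109649405, held 11.9% and 10.6% in the first table and 77.2% and 74.2% in the second. Prkar1b changed still more, with Prkar1b-201 at 85.0% and 92.1% in the first table and 0.0755% and 0.0835% in the second. Prkar2b depended little on the table, with Prkar2b-202 at 50.7% and 50.3% in the first and 49.0% and 49.4% in the second. Prkaca-201 held 99.4% and 98.5% in the first table, and in the second almost all of replicate 1 and 91.0% of replicate 2. Prkacb-202 led Prkacb throughout, at 65.0% and 62.4% in the first table and 47.6% and 44.7% in the second.

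**Figure D4:**
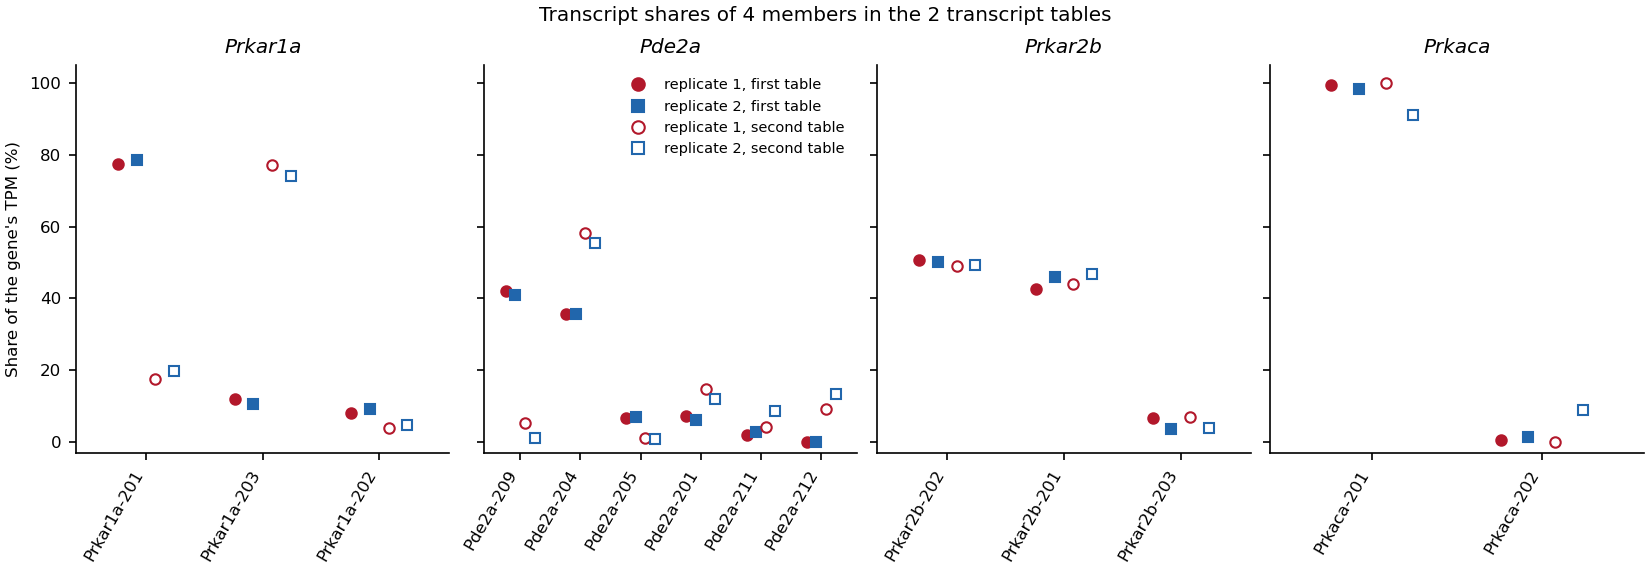
Transcripts with at least 5% in any column, for 4 members, on an axis of the percentage of TPM summed over the gene. Filled symbols are the first transcript table and open symbols the second, circles replicate 1 and squares replicate 2. For Prkar1a, Prkar1a-201 is near 78% in the first table and under 20% in the second, while the libraries lie close together.

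Pde2a likewise depended on the table, between a coding transcript and a transcript annotated for decay. Pde2a-209, annotated as a target of nonsense-mediated decay, held 42.1% and 41.0% in the first table and 5.23% and 1.15% in the second. The coding Pde2a-204 held 35.7% in each library in the first table and 58.3% and 55.6% in the second. All protein-coding transcripts of Pde2a held 43.0% and 41.7% in the first table and 82.4% and 81.1% in the second. By contrast, both tables put most of the TPM of Akap8l outside coding transcripts, which held 26.2% and 21.5% in the first and 27.3% and 21% in the second. The coding share of Pde7a was likewise low, at 33.8% and 36.7% in the first table and 31.9% and 26.6% in the second, with retained-intron transcripts leading in both. For Akap2, a coding transcript of 784 bases held 30.1% and 24.8% of the gene's TPM in the first table and almost none in the second. Another short coding transcript of Akap2, of 671 bases, held 0.554% and 6.54% in the first table and 37.9% and 42.7% in the second.

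Other genes of the pathway, from lists of genes that the symbol rule leaves out, placed these families in context. Of 47 such genes, 34 were at 1 TPM or more in both libraries, against 52.4% of the nuclear protein-coding genes. Gnas, the gene of the stimulatory G protein alpha subunit that activates the cyclases, had 738 and 625 TPM, above every member. This is the level of the whole gene, and the part in transcripts that encode this subunit was not computed. The inhibitory subunit Gnai2 had 73.8 and 53.4 TPM. Rapgef4, the cAMP-activated exchange factor EPAC2, had 39.5 and 41.0 TPM, against 6.28 and 4.73 TPM for its relative Rapgef3. Npr1, the receptor cyclase that makes cGMP in response to natriuretic peptide, had 86.7 and 55.6 TPM. The kinase inhibitor Pkig had 13.9 and 9.16 TPM, and Pkia 1.67 and 1.42. All 11 anchoring proteins under other names were at 1 TPM or more, led by Arfgef2 with 23.2 and 15.4 TPM.

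Between libraries, 39 of these 47 genes could be compared and had a median log2 ratio of -0.17. None was past 2-fold toward replicate 1 and 2 were past it toward replicate 2, against the 1.74% and 5.13% of all genes given above. These were the olfactory-type G protein gene Gnal (38 and 63 counts, -1.01) and the pacemaker channel gene Hcn4 (25 and 62 counts, -1.58). Gnas was at -0.18 and Rapgef4 at -0.15. The 6 cAMP effectors compared had a median of -0.24, and the counting intervals of Hcn2 (0.653 to 1.06) and Hcn3 (0.588 to 1.34), as ratios of replicate 1 over replicate 2, included equality.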

How the data were processed

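Total RNA was sequenced from 300 ng per library with spike-in RNA and a directional kit, per the labels. The authors deposited, per library, a gene table of expected counts and TPM and 2 transcript tables with TPM and, in the second, estimated counts, per the file headers. The build is mm10, per the labels, and the sources used here name no program. Genes were read with the GENCODE M21 annotation, and 86 genes missing from the second table were set to 0 there. Expected counts were rounded. Library sizes were scaled by edgeR 4.0.16 TMM (factors 1.02 and 0.982, replicates 1 and 2), and DESeq2 1.42.0 size factors were an alternative. Ratios used log2((count + 0.5)/size) over genes with a mean of 1 CPM or more. Clopper-Pearson intervals (95%), like the detection limit of 3 counts, describe counting error alone. Neighbours in an order were separate where their shares over the libraries did not overlap. Spike-in RNA was 0.843% and 1.50% of counts. Counts were called whole within 0.01. The ratio procedure was checked on simulated data. Values are given for all kinase subunits, the 4 highest members of each other family by mean TPM and every member past 2-fold, and other members were named for context. Members and lists were chosen with earlier results of these data known. Scripts ran in Python 3.11.15 and R 4.3.3.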

Additional observations from a re-analysis of the deposited data

How the results depend on the processing

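No paired analysis was possible because the study has 1 group and no contrast. The count of members past 2-fold toward replicate 1 was 17 of 43 with spike-in scaling (35.7% of all genes), 2 with no filter on low counts (Adcy8 and Pde10a, 0.906% of all genes) and 2 at a fold of 1.5 (Akap2 and Pde10a, 5.2% of all genes), against 1 with TMM. Toward replicate 2, in place of 1 member, it was 0 with spike-in scaling (1.60% of all genes), with no filter (3.34%), at a mean of 5 CPM or more (1.76%, where Pde1b is not compared) and in the second transcript table (6.96%), and 3 at a fold of 1.5 (Pde1b, Pde3b and Pde4a, 11.7%). Spike-in scaling moves every ratio by the same amount, and apart from the changed filters and folds the cause was not tested. DESeq2 size factors, total counts, coding genes alone, an exact binomial test, and total counts leaving out 89 genes that were 32-fold or more toward replicate 2 (chosen after seeing the data) kept both counts at 1. Without division by length, shares were 30.3% for Adcy6, 29.6% for Pde2a, 7.16% for Pde8b, 13.4% for Akap1 and 40.6% for Prkar2b, and Prkaca over Prkacb was 1.55. In the second table, Pde2a held 23.1%, Pde8b 11.6%, and Prkaca over Prkacb was 1.78. Posterior mean TPM gave 29.7% for Pde2a. Mean transcript shares in the second table, against the first, were 18.6% and 78.1% for Prkar1a-201, 75.7% and 11.2% for Prkar1a-203, 3.19% and 41.6% for Pde2a-209, 57.0% and 35.7% for Pde2a-204, 49.2% and 50.5% for Prkar2b-202, and 95.5% and 99.0% for Prkaca-201. Members at 1 TPM or more numbered 36 to 42 over the settings, beside 52.4% to 60.5% of all nuclear protein-coding genes. By single library they numbered 36 in replicate 1 (54.2% of those genes) and 37 in replicate 2 (53.9%). By single library, shares ran from 32.9% to 40.0% for Adcy6, 24.0% to 29.2% for Adcy9, 30.6% to 31.7% for Pde2a, 11.8% to 12.5% for Pde8b, 12.5% to 21.3% for Akap2, 15.1% to 16.1% for Akap1, 42.3% to 44.0% for Prkar2b and 23.6% to 29.1% for Prkar1a. RI over RII ran from 0.604 to 0.737, Prkaca over Prkacb from 2.15 to 2.39, and regulatory over catalytic from 2.81 to 3.32. Of 100 log2 ratios recomputed for 20 named members, none of those past 2-fold turned direction. Among those under 2-fold, 13 changed sign, with spike-in scaling for Adcy3, Adcy6, Adcy7, Akap1, Akap8l, Akap9, Pde3b, Prkaca and Prkar1b, and also with total counts and in the second table for Akap1 and Prkaca. Another 9 newly passed 2-fold, all with spike-in scaling, and 2 no longer did. Depth limits the 9 members with under 10 counts in a library. For these the text gives counts, apart from the TPM of Pde6a and the call of Adcy8 without the filter. Adcy8 had 11 and 2 counts, and with the main TMM library sizes its counting interval of 0.983 to 41.8 included equality.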
